A study of Mus musculus with 9 samples.

Results

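A set of 9 genes used to recognise muscle satellite cells was followed across cultured mouse myoblasts and 2 reserve cell populations, labelled by cycle. The genes were chosen by symbol from the 47729 genes listed for each library: the transcription factor genes Pax7, Pax3 and Six4, the surface protein genes Vcam1, Cd34, Sdc3, Sdc4 and Megf10, and the membrane-anchored growth arrest gene Gas1. Each symbol matched 1 gene, and all 9 were among the 12540 genes with enough counts to test. The libraries came from FVB/N mouse skeletal muscle myoblasts, with 3 libraries labelled Parental (PAR), 3 labelled FRCs Cycle 1 (FRC1) and 3 labelled SRCs Cycle 3 (SRC3). The labels name no genetic change or agent for any group, and give no animal age. Per the labels, the reserve populations had been passaged under proliferation conditions between isolation and harvest, so these are growing cultures and not resting cells. The labels do not say that replicates were separate cultures, so the p-values rest on sample spread that could be technical alone.

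Satellite cells are the stem cells of skeletal muscle and lie between the fibre and its basement membrane. The paired-box factor Pax7 marks them, and its paralog Pax3 acts in the embryonic muscle lineage and in satellite cells of some muscles. When satellite cells are activated they express Myod1, multiply as myoblasts and either differentiate or return to an undifferentiated state. Reserve cells are the mononucleated cells that stay undifferentiated when a myoblast culture is induced to fuse. Several of the 9 genes are not specific to muscle: Vcam1 and Cd34 are also used as markers of endothelial, mesenchymal or blood-forming cells.

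Library totals ran from 13012996 to 14336279 gene counts. Values are in CPM, each count set against the summed counts of the tested genes of its library and scaled by TMM. They are given as mean ± SD (n = 3 per group). Tests were quasi-likelihood tests in edgeR, p-values were adjusted by Benjamini-Hochberg over every tested gene, and 0.05 was the threshold. On the first principal component of all tested genes the SRC3 libraries lay between 42.08 and 45.08 and the other 6 libraries between -23.65 and -19.21. FRC1 replicate 1 was the FRC1 library nearest to PAR on the second component (-15.44, against -28.2 and -25.15). For 8 of the 9 genes it was also the FRC1 library nearest to the PAR mean, against 47.7% of all tested genes. Bulk libraries cannot tell fewer cells expressing a gene from less RNA of it per cell. The myoblast identity of the cultures was visible in Myod1, at 776.5 ± 15.1 CPM in PAR, 770.8 ± 15.9 in FRC1 and 539.6 ± 18.8 in SRC3, while Myf5, another activation factor gene, had 1 count in SRC3 and 0 elsewhere.

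The 9 genes did not move as a unit. In SRC3 against PAR, Pax7, Vcam1 and Gas1 fell, Cd34 and Megf10 rose, and Pax3, Six4, Sdc3 and Sdc4 did not pass. In FRC1 against PAR, Vcam1, Gas1, Six4 and Sdc4 fell and Sdc3 rose, while Pax7, Pax3, Cd34 and Megf10 did not pass. Between the reserve populations, Cd34 and Megf10 were higher in SRC3 and Pax7 and Sdc3 lower. The called share was 5 of 9 in FRC1 against PAR, where 28.3% of all tested genes were called, 5 of 9 in SRC3 against PAR, where 37.9% were, and 4 of 9 in SRC3 against FRC1, where 33.5% were. Libraries of the compared groups did not overlap for 6 of the 9 genes in FRC1 against PAR (2 higher, 4 lower), where 44.2% of all tested genes were so separated (21.8% higher, 22.4% lower). In SRC3 against PAR this held for 7 (2 higher, 5 lower; 49.1% of all tested genes, 23.7% higher and 25.4% lower). SRC3 against FRC1 had 5 (3 higher, 2 lower; 42.8%, 19.9% higher and 22.9% lower). The median log2 fold change of the 9 genes was -0.16, -0.13 and 0.11 in these comparisons, against 0.003, 0.006 and 0 over all tested genes. The comparisons of the reserve populations with PAR share the PAR libraries.

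**Figure D1:**
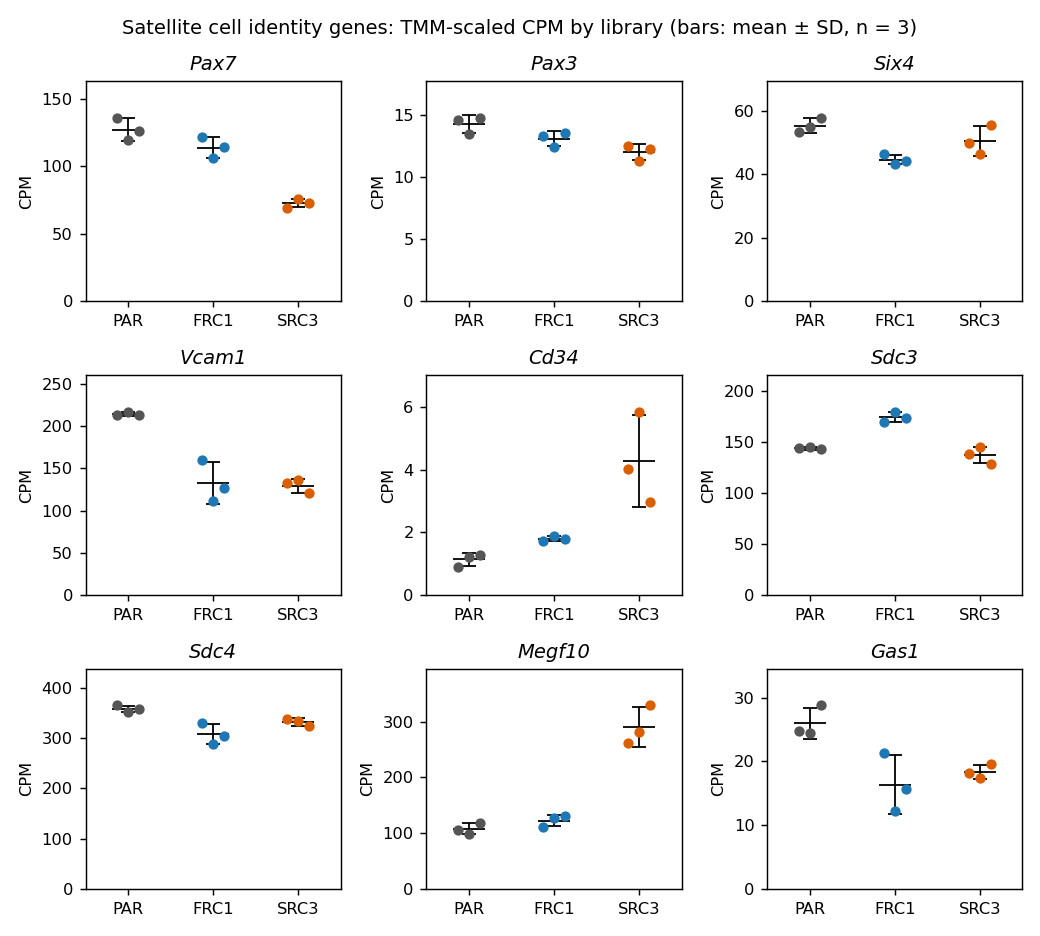
TMM-scaled CPM (vertical axes, each from 0) of the 9 genes in PAR, FRC1 and SRC3; points are libraries, and bars give the mean ± SD of 3 libraries. Pax7 is lowest in the 3 SRC3 libraries (69.45 to 75.75 CPM), Vcam1 is high only in PAR, and Cd34 and Megf10 are highest in SRC3.

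**Figure D2:**
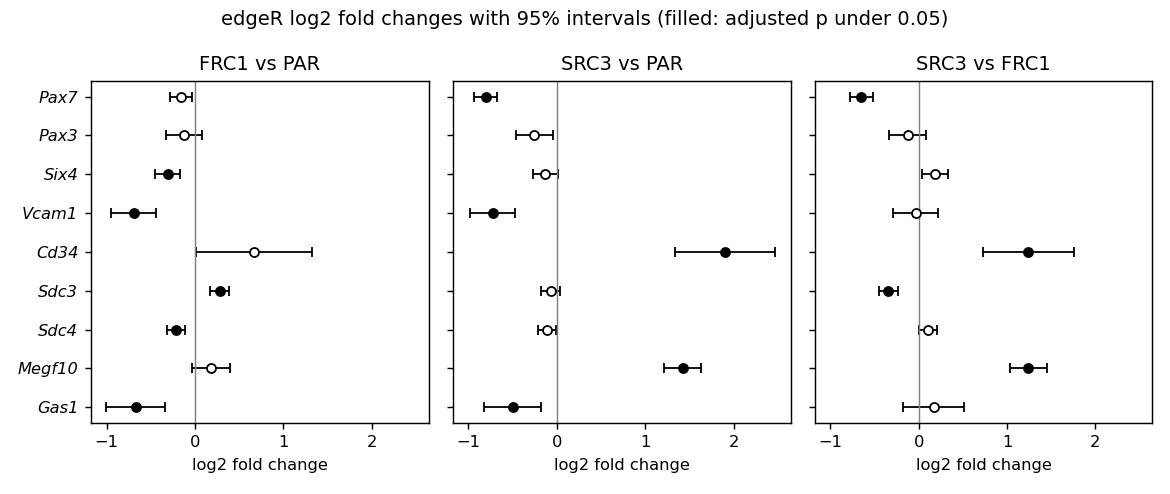
Log2 fold changes (horizontal axis) of the 9 genes in the 3 comparisons, with 95% intervals from the edgeR fit; filled points passed at an adjusted p of 0.05. The intervals of Cd34 are the widest, and those of Pax7 and Megf10 lie clear of 0 in SRC3 against either other group.

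Pax7, the gene of the factor that marks satellite cells (ENSMUSG00000028736, chromosome 4, 139737062 to 139833528, GRCm38), was measured at 135.9, 119.5 and 125.9 CPM in the PAR libraries. It stood at 121.3, 106.2 and 114.1 CPM in FRC1 and at 69.45, 75.75 and 72.9 CPM in SRC3. All SRC3 libraries lay below all others, whereas the highest FRC1 library lay within the PAR range. Pax7 fell 1.75-fold in SRC3 against PAR (log2 fold change -0.81 ± 0.0623 SE; edgeR adjusted p = 2.7e-09). Against FRC1 the fall was 1.57-fold (-0.65 ± 0.0625 SE; edgeR adjusted p = 9.2e-08). In FRC1 the mean was 113.8 ± 7.55 CPM against 127.1 ± 8.24 in PAR (log2 fold change -0.16, 95% interval -0.286 to -0.034; edgeR adjusted p = 0.053). That p ranged from 0.019 to 0.25 as each library was left out in turn. It was under the threshold when FRC1 replicate 1 (0.019), PAR replicate 2 (0.032) or either of SRC3 replicates 2 (0.033) and 3 (0.044) was left out. The same held with RLE size factors (0.049), no filter (0.033) or a fit of only these groups (0.036).

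Pax3, the paralog (ENSMUSG00000004872, chromosome 1, 78101267 to 78197134), was detected in every library at a far lower level. It was measured at 14.63, 13.48 and 14.78 CPM in PAR, 13.34, 12.39 and 13.54 CPM in FRC1, and 12.47, 11.26 and 12.24 CPM in SRC3. The SRC3 libraries lay below those of PAR without overlap, which in this direction held for 25.4% of all tested genes. The log2 fold change was -0.25 in SRC3 against PAR (95% interval -0.463 to -0.045; edgeR adjusted p = 0.051), -0.13 in FRC1 against PAR (0.36) and -0.13 in SRC3 against FRC1 (0.37). No 50-base stretch of the annotated Pax7 transcripts occurred in transcripts of another gene, and for Pax3 0.275% did, so reads of these paralogs could be told apart.

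Within each library the log2 ratio of Pax7 to Pax3 counts was 3.15 ± 0.062 in PAR, 3.12 ± 0.057 in FRC1 and 2.60 ± 0.138 in SRC3. The SRC3 ratios did not overlap those of PAR or FRC1. The log2 ratio of Pax7 to Myod1 counts was -2.61 ± 0.090 in PAR, -2.76 ± 0.090 in FRC1 and -2.89 ± 0.017 in SRC3, with no overlap between any of the groups. The gaps on either side of FRC1 were narrow. The nearest libraries stood at -2.67 in PAR and -2.70 in FRC1, and at -2.86 in FRC1 and -2.88 in SRC3. The mean ratio of Pax7 to Myod1 was lower in SRC3 than in PAR by 0.28, although Myod1 itself fell (log2 fold change -0.53; edgeR adjusted p = 7e-09). In an exact two-sided permutation test each of these separations gave p = 0.10, the smallest that 3 against 3 libraries allow (0.13 adjusted over 9 ratio comparisons).

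Six4 encodes a homeodomain factor that acts upstream of the myogenic factor genes (ENSMUSG00000034460, chromosome 12, 73099609 to 73113456). It was measured at 53.28, 54.83 and 57.78 CPM in PAR, 46.23, 43.32 and 44.26 CPM in FRC1, and 49.87, 46.28 and 55.56 CPM in SRC3. FRC1 was the low group and did not overlap PAR. Six4 fell 1.24-fold in FRC1 (log2 fold change -0.31, SE 0.0691; edgeR adjusted p = 0.0022). In SRC3 it did not pass against PAR (log2 fold change -0.13; edgeR adjusted p = 0.15) or FRC1 (0.18; adjusted p = 0.051), with ranges of 0.029 to 0.52 and 0.0085 to 0.26 as each library was left out. The first passed without SRC3 replicate 3 (0.029). The second passed without PAR replicate 3 (0.048), FRC1 replicate 1 (0.049) or SRC3 replicate 2 (0.0085), with RLE size factors (0.045) and with the stricter filter (0.037).

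Proteins of the Six4, Eya and Dach families act together, and of 10 other genes of these families 5 were tested. None rose in either reserve population against PAR: 2 fell and 3 did not pass in FRC1, and 3 fell and 2 did not pass in SRC3. Over all tested genes 13.6% were higher and 14.7% lower in FRC1, and 17.8% and 20.2% in SRC3. With 5 genes tested, the absence of rises is thus near the background. Between the reserve populations 1 was higher in SRC3, 3 were lower and 1 did not pass, against 15.5% higher and 18% lower over all tested genes. Six2 had 118 counts over PAR and 6 over SRC3, which puts the ratio at 8.42 to 52.5 (95% counting interval). Counting intervals of ratios pool the libraries of a group and leave out the spread between libraries. In FRC1 it stood at 1.585 ± 0.21 against 2.848 ± 0.546 CPM in PAR, a fall of 1.79-fold that was lost under 5 of 16 alternatives, among them without PAR replicate 1 or 2 or FRC1 replicate 1 or 2. Eya1, the gene of a coactivator that works with Six4, fell 1.63-fold in FRC1 to 49.18 ± 2.45 CPM, and stood 1.38-fold higher in SRC3 than in FRC1, at 67.85 ± 6.76 CPM. Eya1 fell 1.18-fold in SRC3 against PAR (edgeR adjusted p = 0.0059; 0.052 without SRC3 replicate 1). Eya4 had 62 counts over PAR, 53 over FRC1 and 11 over SRC3, where it stood at 0.2789 ± 0.233 CPM. It was lower in SRC3 than in PAR by a ratio of 2.83 to 11.4 and than in FRC1 by 2.38 to 9.8 (95% counting intervals). The log2 fold changes of Eya4, -2.40 and -2.17, were -3.23 and -3.01 without SRC3 replicate 3, and -1.934 and -1.705 without SRC3 replicate 1. Eya3 was 1.14-fold lower in SRC3 than in FRC1, a call lost without FRC1 replicate 3.

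Vcam1 encodes an immunoglobulin-family adhesion receptor on satellite cells and myoblasts, which binds integrin alpha4 beta1 (ENSMUSG00000027962, chromosome 3, 116109949 to 116129688). The PAR libraries held 212.8, 217.2 and 213.5 CPM. The FRC1 libraries held 160.2, 110.9 and 126.8 CPM and the SRC3 libraries 132.5, 135.7 and 120.3 CPM. Every reserve cell library lay below every PAR library. Vcam1 fell 1.62-fold in FRC1 (edgeR log2 fold change -0.69 ± 0.111 SE, adjusted p = 0.0015) and 1.66-fold in SRC3 (-0.73 ± 0.112 SE; edgeR adjusted p = 0.00064). Between the reserve populations the log2 difference was -0.03 (95% interval -0.289 to 0.222; edgeR adjusted p = 0.86), and it was 0.124 without FRC1 replicate 1, the highest of the FRC1 libraries.

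Cd34 encodes a sialomucin of the cell surface that marks quiescent satellite cells and several other progenitors (ENSMUSG00000016494, chromosome 1, 194938819 to 194961279). It had few reads in any library: the PAR libraries held 13, 16 and 18 counts, those of FRC1 23, 27 and 25, and those of SRC3 55, 76 and 39. These correspond to 0.910, 1.23 and 1.28 CPM in PAR, 1.74, 1.89 and 1.78 CPM in FRC1, and 4.03, 5.86 and 2.96 CPM in SRC3. The 3 groups did not overlap, in the order PAR, FRC1, SRC3, and the spread was widest in SRC3. Cd34 rose 3.75-fold in SRC3 against PAR (edgeR log2 fold change 1.91 ± 0.271 SE, adjusted p = 1.3e-05) and 2.36-fold against FRC1 (1.24 ± 0.248 SE; edgeR adjusted p = 0.00058). In FRC1 against PAR the log2 fold change was 0.67 (95% interval 0.011 to 1.32; edgeR adjusted p = 0.12). For the lowest library, with 13 counts, the 95% Poisson interval was 0.4846 to 1.556 CPM, which covers counting error only.

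The levels of other cell types' markers were read beside Cd34 and Vcam1. Of 9 endothelial markers 6 had 0 counts in SRC3, among them Kdr, Tie1 and Erg, and the summed level of the list was 1.21 to 1.54 CPM in the PAR libraries, 1.44 to 3.14 in FRC1 and 1.54 to 2.51 in SRC3. Esam, the only tested member, stood at 1.005 ± 0.275 CPM in PAR, 1.916 ± 0.825 in FRC1 and 1.894 ± 0.434 in SRC3. Its rises against PAR were 1.89-fold in FRC1 (edgeR adjusted p = 0.048) and 1.86-fold in SRC3 (edgeR adjusted p = 0.045). They were lost under 8 and 7 of 16 alternatives. Of 8 immune markers 5 had 0 counts in SRC3, Ptprc (CD45) included, with sums of 2.91 to 3.5 CPM in PAR, 2.27 to 3.49 in FRC1 and 3.09 to 4.55 in SRC3. The 10 fibroblast and fibro-adipogenic progenitor markers summed to 17.6 to 19.2 CPM in PAR, 11.5 to 15.1 in FRC1 and 14.1 to 16.3 in SRC3. In that list Lum and Tcf21 were at 0 counts in every group, and of 4 tested members 1 rose and 2 fell in SRC3 against PAR, where 17.8% of all tested genes rose and 20.2% fell. Osr1 rose 2.28-fold, to 8.761 ± 0.7 CPM. Cd55 fell 17.3-fold, from 7.103 ± 0.193 to 0.4074 ± 0.325 CPM. Its log2 fold change of -4.11 was -4.92 without SRC3 replicate 2 and -3.699 without SRC3 replicate 1. Ly6a fell 1.8-fold, a call lost without PAR replicate 2 or 3 or SRC3 replicate 2 or 3. The 9 pericyte and smooth muscle markers summed to 167 to 198 CPM in PAR, 348 to 506 in FRC1 and 60.4 to 73.3 in SRC3. Of their 3 tested members 1 rose and 2 fell in SRC3 against PAR (17.8% and 20.2% of all tested genes). In FRC1 against PAR all 3 rose, where 13.6% of all tested genes did. Cspg4 (NG2) stood at 0.6952 ± 0.325 CPM in PAR, 7.821 ± 2.91 in FRC1 and 52.31 ± 9.01 in SRC3. Acta2 fell 7.83-fold and Tagln 17.1-fold in SRC3 against PAR. In PAR Acta2 and Tagln stood at 67.17 ± 5.64 and 112.4 ± 10.7 CPM, and in FRC1 at 199.4 ± 30.4 and 217.3 ± 47.1. The rise of Tagln in FRC1 was lost under 8 of 17 alternatives. The untested members of this list had few counts. Pdgfrb had 1, 0 and 2 over PAR, FRC1 and SRC3, Rgs5 had 5, 14 and 7, and Myh11 had 0, 0 and 6. Cnn1, Kcnj8 and Abcc9 had 3 or fewer in every group. The 8 Schwann cell and glial markers summed to 3.37 to 5.25 CPM in PAR, 5.81 to 7.13 in FRC1 and 21.9 to 41.2 in SRC3, with Sox10, S100b and Foxd3 at 0 counts in every group and Ngfr at 19.43 ± 8.09 CPM in SRC3. The part of the endothelial, pericyte, glial and fibroblast markers in the levels of Cd34 and Vcam1 was not tested.

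Upstream sequence is shown for Cd34, which had the largest rise of the 9 genes, and for Gas1, which fell in both reserve populations, as the 250 bases before the RefSeq start on GRCm38.p6, read 5′ to 3′ on the gene's strand. The Cd34 stretch is chr1:194938571-194938820 on the plus strand and the Gas1 stretch chr13:60177536-60177785 on the minus strand. Capitals mark matches, on either strand, to the CCAAT box (CCAAT), the GC box (GGGCGG), the TATA box (TATAAA), an E-box (CAGCTG), the RBPJ motif (TGGGAA), the MEF3 site (TCAGGTT), to which Six4 binds, or a palindromic homeodomain motif.
Cd34: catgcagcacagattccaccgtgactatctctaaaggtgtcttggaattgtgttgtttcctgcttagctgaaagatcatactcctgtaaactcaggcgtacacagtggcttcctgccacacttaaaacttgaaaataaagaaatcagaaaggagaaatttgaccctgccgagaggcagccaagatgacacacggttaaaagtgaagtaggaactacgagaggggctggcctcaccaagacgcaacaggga
Gas1: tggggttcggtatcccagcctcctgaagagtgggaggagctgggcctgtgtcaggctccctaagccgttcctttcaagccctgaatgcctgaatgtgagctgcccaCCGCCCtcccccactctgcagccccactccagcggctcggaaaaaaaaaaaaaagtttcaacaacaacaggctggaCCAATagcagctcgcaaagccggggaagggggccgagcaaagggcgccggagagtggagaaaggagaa
The Cd34 stretch held 46.4% G and C and none of the 7 motifs. The Gas1 stretch held 58.8% G and C, with CCAAT at 68 bases and the GC box, on the opposite strand, at 144 bases before the start. The RefSeq start of Gas1 lies 170 bases upstream of the GENCODE start of the gene, so these distances hold for the RefSeq start. Of 32851 such stretches of all genes 33.8% held CCAAT, 32.7% GGGCGG, 12.4% TATAAA, 13% CAGCTG, 21.6% TGGGAA, 3.49% TCAGGTT and 0.384% the homeodomain motif. Of the 9 genes 6 had an entry in this table. A match is a description of letters and not of a bound site.

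Gas1 encodes a membrane-anchored protein linked to growth arrest and a co-receptor of hedgehog proteins (ENSMUSG00000052957, chromosome 13, 60174405 to 60177365, a gene of 1 exon). It was measured at 24.71, 24.43 and 28.78 CPM in PAR, 21.3, 12.18 and 15.61 CPM in FRC1, and 18.19, 17.36 and 19.54 CPM in SRC3. Every reserve cell library was below every PAR library, and FRC1 was the more scattered group. Gas1 fell 1.59-fold in FRC1 (edgeR log2 fold change -0.67 ± 0.152 SE, adjusted p = 0.0056) and 1.42-fold in SRC3 (-0.50 ± 0.151 SE; edgeR adjusted p = 0.019). The call in SRC3 was lost without PAR replicate 3 (0.074), SRC3 replicate 1 (0.063) or SRC3 replicate 2 (0.075; range 0.00038 to 0.075). Between the reserve populations the log2 difference was 0.17 (95% interval -0.173 to 0.518; edgeR adjusted p = 0.45), and it passed without FRC1 replicate 1 (0.403; adjusted p = 0.014). An annotated gene on the opposite strand, Gm48488, overlaps 19.9% of the exon bases of Gas1, and 17% of the 50-base stretches of Gas1 occur in its transcripts. The symbol Gm48488 was not among the genes listed for the libraries. The strand setting of the counting is not given in the sources used here, so the level of Gas1 is uncertain to that extent.

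Of 15 hedgehog pathway genes, Gas1 among them, 11 were tested. FRC1 against PAR had 0 rises and 4 falls, SRC3 against PAR 1 rise and 6 falls, and SRC3 against FRC1 1 rise and 3 falls, with 7, 4 and 7 genes not passing. Over all tested genes the shares higher and lower were 13.6% and 14.7%, 17.8% and 20.2%, and 15.5% and 18%, in the same order of comparisons. The median log2 fold changes of the list were -0.12, -0.20 and -0.03. Cdon, another hedgehog co-receptor with a role in myogenic adhesion, fell 1.15-fold in FRC1, to 345.4 ± 5.39 CPM from 398.8 ± 27.1, a call lost without PAR replicate 3. It stood at 318.4 ± 19.8 CPM in SRC3, lower than in PAR (edgeR adjusted p = 7.3e-05). The zinc finger effector gene Gli3 fell 1.35-fold in FRC1 and 1.28-fold in SRC3. Gli2, another effector, had 169 counts over PAR, 154 over FRC1 and 0 over SRC3, so that it was at least 54.1-fold lower in SRC3 than in PAR and at least 49.2-fold lower than in FRC1 (the bound takes 3 counts for the whole of SRC3). Hhip, the gene of a hedgehog-binding inhibitor, fell 1.25-fold in FRC1 against PAR and was 1.51-fold higher in SRC3 than in FRC1. Disp1, needed for release of the ligand, fell 1.53-fold in SRC3 against PAR and 1.41-fold against FRC1, and the inhibitor gene Sufu 1.17-fold against FRC1. The receptor gene Ptch1, itself a target of the pathway and also added after its values were seen, stood at 38.74 ± 0.658 CPM in PAR, 37 ± 4.97 in FRC1 and 37.81 ± 2.25 in SRC3 (edgeR adjusted p = 0.59 and 0.77 against PAR). The ligand genes Shh, Ihh and Dhh each had 7 or fewer counts in any group.

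Sdc3 and Sdc4 encode syndecans, transmembrane heparan sulfate proteoglycans that mark satellite cells and bind growth factors. Sdc3 (ENSMUSG00000025743, chromosome 4, 130792537 to 130826319) was measured at 143.6, 145.3 and 142.6 CPM in PAR, 169.9, 179.7 and 173 CPM in FRC1, and 138.2, 144.6 and 128.8 CPM in SRC3. FRC1 stood above both other groups without overlap. Sdc3 rose 1.21-fold in FRC1 against PAR (edgeR log2 fold change 0.28 ± 0.0509 SE, adjusted p = 0.00043) and was 1.27-fold lower in SRC3 than in FRC1 (-0.34 ± 0.0511 SE; edgeR adjusted p = 2.4e-05). In SRC3 against PAR the log2 fold change was -0.07 (95% interval -0.175 to 0.04; edgeR adjusted p = 0.32). Annotated genes on the opposite strand, Gm12970 and Gm26716, overlap 7.73% of the exon bases of Sdc3. They had 1 or fewer counts in every group. With the strand setting of the counting not given, the level of Sdc3 is uncertain to that extent.

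Sdc4 (ENSMUSG00000017009, chromosome 2, 164424247 to 164443887) was measured at 365.3, 353 and 357.4 CPM in PAR, 329.2, 289.2 and 304.7 CPM in FRC1, and 337.3, 335.1 and 323.6 CPM in SRC3. Both reserve populations lay below PAR without overlap, FRC1 the lower on average. Sdc4 fell 1.17-fold in FRC1 (log2 fold change -0.22, SE 0.0489; edgeR adjusted p = 0.0021). It did not pass in SRC3 against PAR (log2 fold change -0.11, 95% interval -0.213 to -0.009; edgeR adjusted p = 0.08) or against FRC1 (0.11, 95% interval 0.008 to 0.212; adjusted p = 0.092). The latter passed without FRC1 replicate 1 (0.018). The log2 ratio of Sdc4 to Sdc3 counts was 1.32 ± 0.034 in PAR, 0.82 ± 0.134 in FRC1 and 1.28 ± 0.059 in SRC3. In FRC1 all 3 ratios were below those of PAR and SRC3 (exact two-sided permutation p = 0.10, the smallest possible, and 0.13 adjusted over 9 comparisons).

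Of 20 other syndecan, glypican and heparan sulfate enzyme genes 18 were tested. Against PAR 2 rose and 8 fell in FRC1 and 3 rose and 9 fell in SRC3, while 4 were higher and 6 lower in SRC3 than in FRC1; 8, 6 and 8 did not pass. All tested genes had 13.6% higher and 14.7% lower in FRC1, 17.8% and 20.2% in SRC3, and 15.5% and 18% between the reserve populations. Sdc2, another syndecan, fell 1.28-fold in FRC1, to 166.2 ± 8.98 CPM, and was at 170.1 ± 7.27 CPM in SRC3, also lower than in PAR (edgeR adjusted p = 5.1e-05). Sdc1, added after its values were seen, did not pass in any of the comparisons, at 121.8 ± 2.68, 132.2 ± 9.24 and 121.3 ± 4.34 CPM in PAR, FRC1 and SRC3. The glypican gene Gpc4 fell 3.35-fold in FRC1 and had 422 counts over PAR against 7 over SRC3. This puts the ratio at 27.8 to 145 (95% counting interval, without the spread between libraries). Gpc2 had 48 counts over PAR against 5 over SRC3, for an interval of the same kind of 3.69 to 29.7. Gpc6, another glypican gene, fell 1.4-fold in FRC1. Hs6st2, which encodes a 6-O-sulfotransferase of heparan sulfate, fell 12.5-fold in SRC3, from 93.65 ± 4.41 to 7.477 ± 1.21 CPM (log2 fold change -3.65; edgeR adjusted p = 1.5e-17). Extl3 fell 1.37-fold in SRC3 and Ext1, a polymerase gene of the chain, rose 1.32-fold in FRC1. Glce, an epimerase gene of the same chain, was 1.67-fold higher in SRC3 than in FRC1.

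Megf10 encodes a transmembrane protein with EGF-like repeats that acts in satellite cell proliferation and in engulfment by other cells (ENSMUSG00000024593, chromosome 18, 57133090 to 57297467). It was measured at 106.5, 99.39 and 119.1 CPM in PAR and 110.5, 127.3 and 130.4 CPM in FRC1. In SRC3 the libraries held 261.1, 280.8 and 329.4 CPM. PAR and FRC1 overlapped, and every SRC3 library was above both. Megf10 rose 2.68-fold in SRC3 against PAR (edgeR log2 fold change 1.42 ± 0.097 SE, adjusted p = 5.2e-07) and 2.37-fold against FRC1 (1.24 ± 0.0961 SE; edgeR adjusted p = 1.8e-06). In FRC1 against PAR the log2 fold change was 0.18 (95% interval -0.038 to 0.398; edgeR adjusted p = 0.21), which passed with no filter (0.014).

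Of 11 relatives of Megf10 and engulfment genes 7 were tested: 0 rose and 2 fell in FRC1 against PAR, 1 rose and 0 fell in SRC3 against PAR, while SRC3 exceeded FRC1 for 2 and was lower for 0. The shares of all tested genes higher and lower were 13.6% and 14.7%, 17.8% and 20.2%, and 15.5% and 18%, so that the single rise against PAR is near the background. Mertk, an engulfment receptor gene, rose 2.48-fold in SRC3 against PAR, from 6.681 ± 0.249 to 16.61 ± 1.29 CPM, and 2.26-fold against FRC1. Notch1, whose product has been linked to Megf10 in satellite cells, fell 1.38-fold in FRC1, to 76.52 ± 14.1 CPM from 105.6 ± 6.5. Megf9 fell 1.32-fold in FRC1 and was 1.26-fold higher in SRC3 than in FRC1. The Megf9 calls were lost under 2 of 17 alternatives in FRC1 against PAR (without PAR replicate 3 or FRC1 replicate 3) and 5 of 17 in SRC3 against FRC1 (among them without FRC1 replicate 2 or 3 or SRC3 replicate 1 or 3).

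Levels of different genes were compared per length, as CPM per kb of the gene's annotated exons. Sdc4 was the highest of the 9 in every group, at 140.8 ± 2.45 CPM per kb in PAR, 120.8 ± 7.93 in FRC1 and 130.3 ± 2.89 in SRC3. Cd34 was the lowest, at 0.156 ± 0.0273 in PAR, 0.248 ± 0.0104 in FRC1 and 0.588 ± 0.201 in SRC3. In PAR the order from the top was Sdc4, Vcam1, Sdc3, Pax7, Megf10, Gas1, Six4, Pax3 and Cd34, and Vcam1 and Sdc3 overlapped (24.18 ± 0.271 and 24.01 ± 0.227 CPM per kb). In FRC1 Pax7 stood above Megf10 and Vcam1, which overlapped each other, as did Gas1 and Six4. In SRC3 Megf10 moved up to rank 2, at 37.63 ± 4.55 CPM per kb, and Pax7 was at rank 5, at 12.41 ± 0.538, with no overlap between neighbours. Among 12520 tested genes with a length, Pax7 exceeded 79.1% in PAR, 76.7% in FRC1 and 65.4% in SRC3, and Megf10 68.7%, 71.6% and 88.5%.

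**Figure D3:**
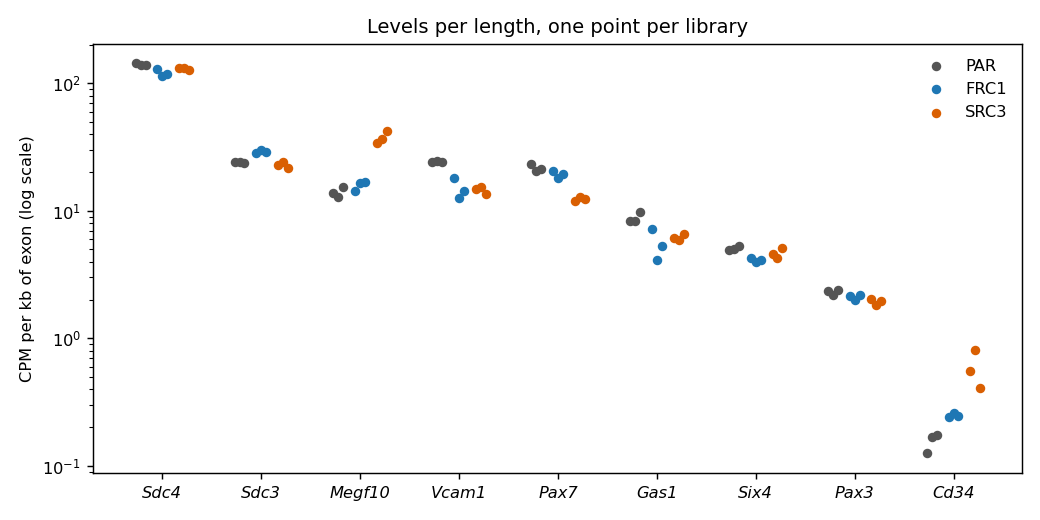
CPM per kb of annotated exon (log axis) of the 9 genes, ordered by their mean over all libraries, with 1 point per library in PAR, FRC1 and SRC3. Sdc4 lies near 100 or above in every library (113.5 to 143.4) and Cd34 below 1, and Megf10 and Pax7 change places between PAR and SRC3.

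For the 2 members whose group means of log2 CPM spanned at least 1, the tested genes with the most similar pattern over the 9 libraries were listed by the root mean square difference of centred log2 CPM. For Cd34 these were the collagen gene Col16a1 (0.201), the semaphorin gene Sema3c (0.242) and Ngef, the gene of a guanine nucleotide exchange factor (0.255). Col16a1 went from 2.755 CPM in PAR to 5.543 in FRC1 and 11.32 in SRC3. For Megf10 they were Atp1b1, a sodium pump subunit gene (0.136), the receptor phosphatase gene Ptprm (0.137) and Flrt2, an adhesion protein gene (0.141). Flrt2 stood at 141.6, 132.2 and 364.2 CPM in PAR, FRC1 and SRC3.

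**Figure D4:**
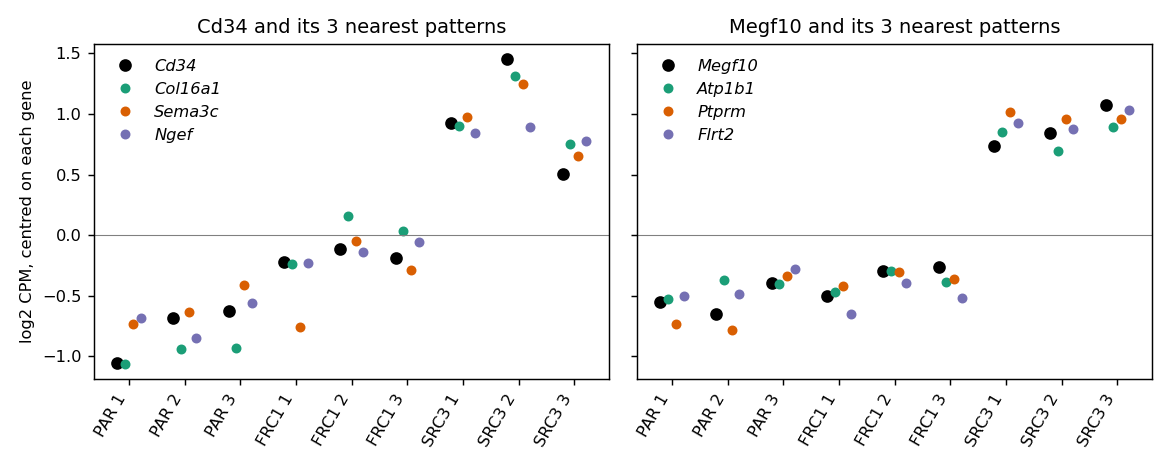
Log2 CPM centred on each gene's mean (vertical axis) in the 9 libraries (horizontal axis) for Cd34 and Megf10 (black) and the 3 tested genes nearest to each in pattern. In the Megf10 panel the 4 genes sit close together, with SRC3 above PAR and FRC1, and in the Cd34 panel FRC1 lies between PAR and SRC3 for Cd34 itself.

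Other genes used to describe satellite cells and their quiescence were taken from a list of 40, of which 33 were tested. Some of them, Six2, Eya1, Eya4, Notch1, Met, Itgb1 and Cdh15 among them, also stand in other lists given here. The counts of the lists are therefore not separate observations. FRC1 against PAR had 2 rises and 13 falls among them, with 18 not passing and a median log2 fold change of -0.21. SRC3 against PAR had 8 rises and 15 falls, with 10 not passing and a median of -0.19. SRC3 was higher than FRC1 for 9 and lower for 8, with 16 not passing and a median of -0.04. Over all tested genes 13.6% were higher and 14.7% lower in FRC1 than in PAR, and SRC3 against PAR had 17.8% and 20.2%; SRC3 against FRC1 had 15.5% and 18%. Of these 40 genes Myf5, Calcr, Chrdl2, Meox2, Barx2 and Heyl had 3 or fewer counts in every group, so that Calcr, a quiescence marker, was at 0 counts throughout. Cav1, the caveolin gene, fell 2.62-fold in FRC1, to 62.34 ± 21.1 CPM from 162.5 ± 10.2. Fgfr4, which encodes a fibroblast growth factor receptor, fell 1.66-fold in FRC1 and 2.89-fold in SRC3, to 9.192 ± 0.683 CPM from 26.54 ± 2.21.

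The Notch target Hey1 fell 5-fold in SRC3 against PAR, from 10.33 ± 1.21 to 2.064 ± 0.076 CPM, and 3.69-fold against FRC1. Tenm4, a teneurin gene active in quiescent satellite cells, was 2.37-fold higher in SRC3 than in FRC1, at 6.947 ± 2.4 against 2.927 ± 0.599 CPM. Spry1, Cxcr4 and Cd82 were chosen after their values were seen. Spry1, which encodes an inhibitor of growth factor signalling needed for the return to quiescence, rose in SRC3 against PAR, from 3.508 ± 0.505 to 6.498 ± 0.59 CPM (log2 fold change 0.89; edgeR adjusted p = 0.00052). The chemokine receptor gene Cxcr4 rose from 10.78 ± 2.19 to 17.21 ± 1.84 CPM (log2 fold change 0.67; edgeR adjusted p = 0.0019). Cdh15, the M-cadherin gene, fell from 269 ± 7.8 CPM in PAR to 222.7 ± 16.6 in FRC1 and 148.5 ± 16.4 in SRC3, and the tetraspanin gene Cd82 from 107.4 ± 2.89 to 91.37 ± 4.7 and 67.67 ± 2.11 CPM.

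**Figure D5:**
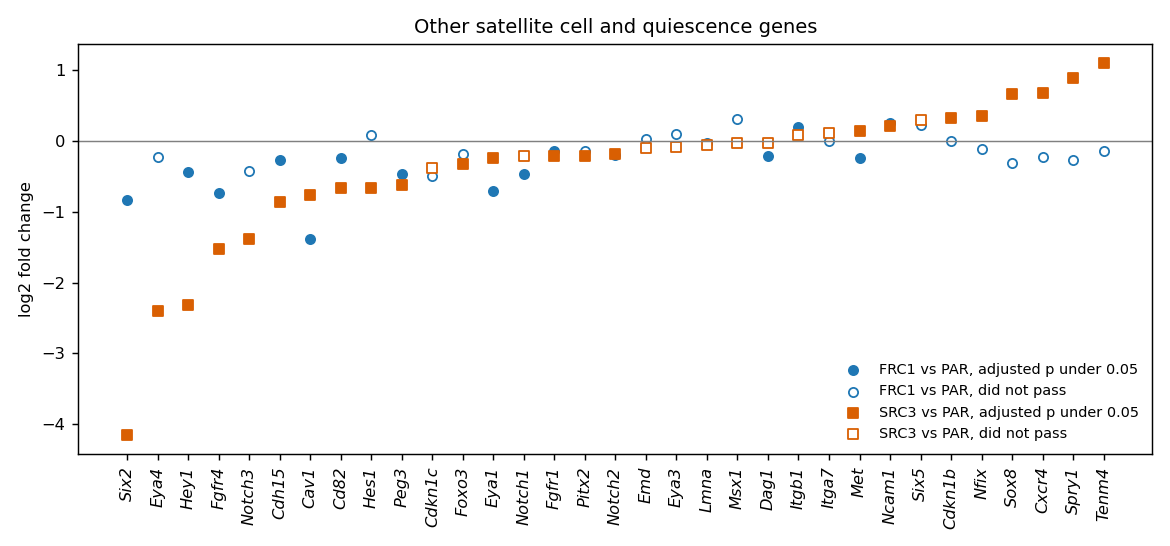
Log2 fold changes (vertical axis) of the 33 tested genes of the other satellite cell and quiescence list in FRC1 against PAR (circles) and SRC3 against PAR (squares), ordered by the latter; filled symbols passed at an adjusted p of 0.05. The 15 falls in SRC3 reach from Six2 at -4.16 upward, and 8 genes rose.

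Genes of Pax7 cofactors and reported Pax7 targets numbered 12, with 11 tested. Of these 2 rose, 1 fell and 8 did not pass in FRC1 against PAR, and in SRC3 against either group 3 rose, 1 fell and 7 did not pass. With 13.6% of all tested genes higher and 14.7% lower in FRC1, the counts there are near the background. In SRC3 the shares of all tested genes were 17.8% higher and 20.2% lower against PAR and 15.5% and 18% against FRC1. The inhibitor genes Id2 and Id3 moved in opposite directions in SRC3. Id2 rose 1.47-fold against PAR, to 142.9 ± 10.9 CPM, and Id3 fell 1.33-fold, to 227.9 ± 12.9 CPM. Dpy30, a subunit gene of the histone methyltransferase complex that Pax7 recruits, rose 1.41-fold in SRC3 against PAR, to 59.28 ± 3.02 CPM, and 1.15-fold in FRC1. Met, the receptor gene for hepatocyte growth factor, fell 1.18-fold in FRC1 and rose 1.1-fold in SRC3 against PAR. The rise of Met in SRC3 was lost without PAR replicate 1, 2 or 3 or SRC3 replicate 3, and that of Dpy30 in FRC1 under 5 of 17 alternatives, among them without PAR replicate 1 or 2 or FRC1 replicate 2 or 3. In FRC1 Id3 stood 1.1-fold higher than in PAR, a call lost without PAR replicate 1, 2 or 3 or FRC1 replicate 2 or 3.

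Of 11 Vcam1 receptor subunits, Cd34 relatives and other adhesion receptors 7 were tested; 2 rose and 1 fell in FRC1 against PAR, 4 rose and 1 fell in SRC3 against PAR, while SRC3 exceeded FRC1 for 5 and was lower for 1. For comparison, 13.6% of all tested genes rose and 14.7% fell in FRC1, 17.8% and 20.2% did in SRC3, and 15.5% and 18% differed between the reserve populations. The integrin subunit genes that form Vcam1 receptors stood far apart, Itga4 at 1.036 ± 0.211 CPM in PAR and Itgb1 at 917.4 ± 8.94. Itgb1 rose 1.15-fold in FRC1, a call lost without PAR replicate 1 or 2 or FRC1 replicate 2. Itgb7 rose 4.02-fold in SRC3 against PAR, to 28.3 ± 1.73 CPM. Itga4 was 1.87-fold higher in SRC3 than in FRC1 (edgeR adjusted p = 0.049), a call lost under 12 of 16 alternatives, among them the omission of any library except FRC1 replicate 1. Podxl, the podocalyxin gene related to Cd34, rose 1.39-fold in SRC3 against PAR, to 173.8 ± 1.94 CPM, and its relative Podxl2 1.48-fold. Podxl fell 1.3-fold in FRC1, a call lost under 7 of 17 alternatives, among them without PAR replicate 1, 2 or 3, FRC1 replicate 3 or SRC3 replicate 2 or 3. Mcam rose 2.7-fold in FRC1 and fell 2.13-fold in SRC3 against PAR, the latter lost without SRC3 replicate 2 or 3.

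Differentiation and growth genes were read beside the members. Of 19 myogenic commitment and differentiation genes 16 were tested; 9 rose and 4 fell in FRC1 against PAR, 7 rose and 3 fell in SRC3 against PAR, while SRC3 exceeded FRC1 for 2 and was lower for 12. Among all tested genes 13.6% rose and 14.7% fell in FRC1, 17.8% and 20.2% in SRC3, and 15.5% were higher and 18% lower in SRC3 than in FRC1, so that the 3 falls in SRC3 are near the background. Myog, the differentiation factor gene, stood at 0.574 ± 0.194 CPM in PAR, 8.97 ± 1.58 in FRC1 and 1.615 ± 0.563 in SRC3 (edgeR adjusted p = 7.2e-09 and 0.0037 against PAR). FRC1 thus combined the highest Myog level with a Pax7 level that fell just short of the threshold against PAR (edgeR adjusted p = 0.053). That Pax7 difference passed under 7 of 17 alternatives. SRC3 combined the lowest Pax7 with a Myog level above that of PAR and below that of FRC1. The list genes with the largest calls against PAR were Myl1, Myh8, Mybph and Tnnc2 in FRC1, which rose, and in SRC3 Myl1, Mef2c and Mybph, which rose, and Tmem8c, the myomaker gene, which fell 4.31-fold. Mybph in SRC3 was no longer called without PAR replicate 1, 2 or 3. Of 10 proliferation genes 2 rose and 2 fell in FRC1 against PAR, 4 rose and 1 fell in SRC3 against PAR, while SRC3 exceeded FRC1 for 3 and was lower for 1. The counts in FRC1 are near the shares of all tested genes (13.6% higher, 14.7% lower), which were 17.8% and 20.2% in SRC3 against PAR and 15.5% and 18% against FRC1. Mki67 stood at 262 ± 15.8, 273.5 ± 19.6 and 311.7 ± 49.2 CPM in PAR, FRC1 and SRC3 and did not pass in any comparison (edgeR adjusted p = 0.098 to 0.72). Ccnd1, the cyclin D1 gene, fell 1.23-fold in FRC1 and 1.66-fold in SRC3 against PAR. It was the only gene of this list that fell in SRC3 against PAR. Among those that rose there, Mcm5 rose 1.36-fold, Pcna 1.35-fold and Birc5 1.23-fold. The 8 myoblast markers, which include Pax7, summed to 2981 to 3066 CPM in PAR, 2932 to 2957 in FRC1 and 2086 to 2283 in SRC3, and of 7 tested 1 rose and 5 fell in SRC3 against PAR (17.8% and 20.2% of all tested genes). The part of these levels in the differences of the 9 genes was not tested.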

How the data were processed

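RNA was measured in 9 libraries, 3 per group, and groups were taken from the sample titles. Per the labels, the libraries were stranded TruSeq mRNA libraries with single reads of 50 nt, from RNA with a RIN of 10. The authors deposited raw read counts for each gene, as whole numbers without normalization. Tools in the submitters' processing notes are HTSeq 0.9.1, HISAT2 2.1.0 and DESeq2, with the build GRCm38; their settings, the strand mode included, are not stated there. The 5 summary lines of each file name no gene and stayed out of library sizes; reads in no gene were 5.923 to 7.917% and ambiguous reads 1.175 to 1.214% of the reads assigned, ambiguous or in no gene. Locations and exon lengths came from GENCODE M21, to which 47310 of 47729 identifiers matched, and upstream sequences from RefSeq (GRCm38.p6).

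An edgeR 4.0.16 model (R 4.3.3) held the counts of every library (filterByExpr at its defaults, TMM, glmQLFit with robust dispersion, glmQLFTest), with 6 residual degrees of freedom. The filter kept genes that reached the CPM of 10 counts at the median library size in at least 3 libraries, and 15 counts in total. Standard errors were derived from the log2 fold change and its F statistic. The pipeline was tested on simulated data. Replicates differed by more than sampling noise (chi-square per degree of freedom 1.81 to 7.47). Nearest patterns used log2 CPM with a prior count of 2. Alternatives were RLE size factors, library sizes alone, no filter, at least 5 CPM in 3 libraries, DESeq2 1.42.0, limma voom (3.58.1), a fit of the compared groups alone, a replicate block and leaving out each library.

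All 9 members were named in each comparison. Of each related list up to 4 genes per comparison were eligible, those with the largest change among genes past the threshold whose higher group reached 1 CPM; Myod1, Myf5, Myog and Mki67 were always named. The members and lists were chosen with earlier results of these data known. A listed gene is not reported here and was left out of the list counts.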

Additional observations from a re-analysis of the deposited data

How the results depend on the processing

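Across 456 member values recomputed under alternatives, 433 kept their direction and side of the threshold, 3 lost the call, 18 gained one and 2 changed sign. The 2 changes of sign were both Vcam1 in SRC3 against FRC1, a difference that did not pass: 0.124 without FRC1 replicate 1 and 0.019 without SRC3 replicate 3, within a range of -0.138 to 0.124 over libraries left out. With each library left out in turn, the number of the 9 genes called was 5 to 6 in FRC1 against PAR, 4 to 6 in SRC3 against PAR and 4 to 7 in SRC3 against FRC1, with 7 reached without FRC1 replicate 1. Over all tested genes the calls were 2327 to 3987, 3845 to 4924 and 3371 to 4281, against 3550, 4758 and 4199 with all libraries; the count of 2327 came without FRC1 replicate 3. Cd34 was not tested under the filter of 5 CPM. Same-numbered libraries did not vary together beyond a correlation of 0.118 (lowest -0.07), so the numbers were not taken as pairs, although each library correlated best with its own number in FRC1 against PAR (6 of 6) and SRC3 against PAR (6 of 6), and in SRC3 against FRC1 for 2 of 6. With a replicate block 3560, 4798 and 4221 genes were called, and 6, 5 and 5 of the 9, with Megf10 added in FRC1 against PAR (edgeR adjusted p = 0.029) and Six4 in SRC3 against FRC1 (0.046). Of 128 pairs of a listed gene and a comparison, 128 kept their sign under each alternative that could be fitted and 101 kept the call. Cd34 rests on 13 to 76 counts a library, which limits its precision.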
